A study of Mus musculus with 24 samples.

Results

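The collagen genes of the mouse were followed in 24 bulk RNA-seq libraries from the supporting cells of the fetal gonad, the cells that enclose the germ cells. All 41 listed collagen chain genes were found among the 32040 gene symbols of the deposited tables, and they were chosen by name, not by their values. Pre-granulosa cells were sorted by fluorescence from XX gonads of the Tg(Enh8-mCherry) mouse line, and Sertoli cells from XY gonads of the SOX9-IRES-GFP line. Each sex was sampled on 4 embryonic days (E11.5, then E12.5 and E13.5, and last E15.5), with 3 libraries in each of the 8 groups and no treatment named. The labels do not describe the transgenes further, so a group holds whatever cells its reporter and gate let through. Sex, mouse line and fluorescent protein change together, so a difference between sexes cannot be told apart from a difference between the lines. The labels do not say that the 3 libraries of a group came from separate embryos or pools, so the p-values measure only the spread between these samples, which may be technical.

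Collagens are proteins in which 3 chains wind around each other into a triple helix. They are grouped here by the structure that the helices build or, for the cartilage-type chains, by tissue. Fibrillar chains, here types I, III, V, XXIV and XXVII, form the ropes of connective tissue. Cartilage-type chains (types II, IX, X and XI) are best known from cartilage, where type IX decorates fibrils of type II. Types II and XI also form fibrils, and type IX also belongs to the FACIT collagens described below. All of these were counted as cartilage-type only. Type IV chains form the network of basement membranes, and types VII, XV and XVIII anchor or accompany it. In the fetal testis, Sertoli cells build cords that are enclosed by a basement membrane.

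Reference sequences are shown for the starts of a cartilage-type gene (Col9a1), a basement-membrane gene (Col18a1) and a fibrillar gene (Col3a1). Each of these genes was called between the sexes from E12.5 on, as described below. The overlap between the main type IV genes, Col4a1 and Col4a2, is shown because Col4a1, higher in XX at E11.5, was higher in XY with Col4a2 from E12.5 on. The first 3 run 5′ to 3′ on the strand of the gene and end at the base before its first annotated exon, with capitals for a CCAAT box (CCAAT), GC box (GGGCGG) or TATA box (TATAAA) on either strand. The last is the overlap of the first exons of Col4a1 and Col4a2, all in capitals. All come from RefSeq on GRCm38.p6, the assembly of mm10.
Col9a1, chr1:24177360-24177609, plus strand: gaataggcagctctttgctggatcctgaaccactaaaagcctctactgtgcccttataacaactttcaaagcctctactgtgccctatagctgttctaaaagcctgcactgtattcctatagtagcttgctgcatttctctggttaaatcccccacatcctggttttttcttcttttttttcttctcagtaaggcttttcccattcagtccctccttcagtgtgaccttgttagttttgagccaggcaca
Col18a1, chr10:77166549-77166780, minus strand: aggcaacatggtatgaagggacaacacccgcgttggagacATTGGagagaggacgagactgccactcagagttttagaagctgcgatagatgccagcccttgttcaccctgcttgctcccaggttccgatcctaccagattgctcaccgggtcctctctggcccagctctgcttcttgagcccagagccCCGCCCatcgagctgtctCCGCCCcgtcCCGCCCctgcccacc
Col3a1, chr1:45311288-45311537, plus strand: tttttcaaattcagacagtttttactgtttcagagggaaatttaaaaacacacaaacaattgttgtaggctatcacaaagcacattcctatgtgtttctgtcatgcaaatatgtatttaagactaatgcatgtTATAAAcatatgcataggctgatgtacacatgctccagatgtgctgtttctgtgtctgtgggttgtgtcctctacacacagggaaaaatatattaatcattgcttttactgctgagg
Col4a1 and Col4a2, chr8:11312805-11312826, plus strand: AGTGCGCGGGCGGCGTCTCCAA
The Col18a1 stretch holds 1 CCAAT box and 3 GC boxes, the Col3a1 stretch holds 1 TATA box, and the Col9a1 stretch holds none of these letters. RefSeq promoter windows (250 bases before to 50 bases after a start) were matched by symbol for 32 of the 41 genes, with 35 windows. Col9a1 and Col18a1 each had another window at a different start, which is not printed. That of Col9a1 held a CCAAT box, and that of Col18a1 held no CCAAT, GC or TATA box. Which start these cells use was not tested. A GC box was in 20 of the 35 windows and in 35.7% of the windows of all genes, a CCAAT box in 12 (37.4% of all windows) and a TATA box in 5 (13.6%). The letters ACAATG, a core bound by SOX proteins, were in 1 window (12.6% of all windows) and ACAAAG in 5 (18.7%). These matches describe letters and nothing more.

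Library totals ranged from 11275251 to 37256881 estimated counts. Levels are given in TPM (transcript abundance scaled for transcript length and library size), in the order of replicates 1, 2 and 3 and, where 4 sets are given, of the stages from E11.5 to E15.5. Differences are on the log2 scale from edgeR's quasi-likelihood test of the counts, with a positive value for higher in XX or for a rise in time, and a gene was called at a Benjamini-Hochberg adjusted p under 0.05 over 16190 genes. The 5 Sertoli markers summed to 607 to 8134 TPM in XY libraries and 27.5 to 116 TPM in XX libraries. The 5 pre-granulosa markers summed to 151 to 985 TPM in XX and 0.55 to 16.9 TPM in XY. Neither sum overlapped between the sexes. Sox9 is a Sertoli marker and also names the XY reporter, so the Sertoli sum is not independent of the sort. At E11.5 the XY mean of Sox9 was 684 TPM, against 9.92 to 60.4 TPM for the other Sertoli markers. From E12.5 on Amh was the largest of them, with XY means of 3418 to 4374 TPM and XX means of at most 0.83 TPM. The XX E11.5 libraries were uneven. Replicate 3 had the highest erythroid marker sum, 62369 TPM, against 26077 and 7400.4 TPM in replicates 1 and 2. In XY at E11.5 that sum was at most 59.2 TPM. The immune markers summed to 215, 103 and 318 TPM in XX at E11.5 and 22.9 to 51.4 TPM later, against at most 1.4 TPM in any XY library. The perivascular sum of replicate 3 was 522 TPM against 167 and 64.5 TPM, so the E11.5 differences of collagen genes are given with and without that library. Replicate 2 differed too: the pre-granulosa sums of replicates 1, 2 and 3 were 188, 571 and 151 TPM. No values of single genes are given without replicate 2. XX E13.5 replicate 1 carries E13.5 in its title and E12.5 in another label and was kept at E13.5. In bulk RNA, fewer cells of a type and less RNA per cell cannot be told apart.

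The summed collagen level overlapped between the sexes at E11.5 and was higher in every XY library afterwards. The 41 genes together gave 541, 379 and 1302 TPM in XX and 834, 1098 and 987 TPM in XY at E11.5, where replicate 3 was the high XX library. At E12.5 the sums were 499, 575 and 379 TPM in XX and 3852, 3892 and 3388 TPM in XY. At E13.5 and E15.5 the XY libraries held 2124 to 2866 and 1314 to 1389 TPM, against 275 to 301 and 311 to 387 TPM in XX. The composition changed as well. In XY, cartilage-type genes made up 13.7% of the mean collagen TPM at E11.5 and 45.5% at E12.5, while fibrillar genes made up 45.1% and 2.02%. In XX, the fibrillar share went from 62.8% to 31.4% in the first step, was 35.5% a day later and 52.7% at the last stage. The XX E11.5 share includes replicate 3, whose fibrillar sum was 985 TPM, against 276 and 134 TPM in replicates 1 and 2. The cartilage-type share in XX was 4.09% or less at each stage.

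**Figure D1:**
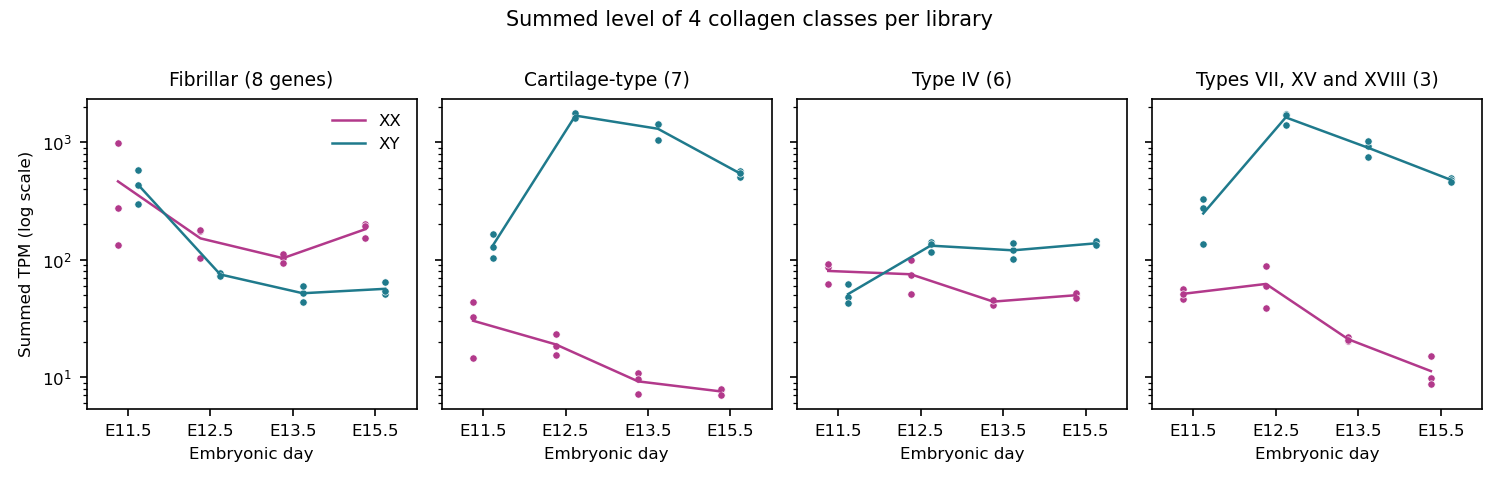
Summed TPM of 4 collagen classes (log scale) against embryonic day; each point is 1 library and lines join the group means of XX and XY. At E12.5 the cartilage-type sum was 1611 to 1778 TPM in XY and 15.3 to 23.5 TPM in XX, while the fibrillar sum was 73.2 to 77.1 TPM in XY and 103 to 179 TPM in XX.

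The count filter was passed by 39 of the 41 genes, and not by Col5a3 and Col10a1. The filter can be passed through 1 group alone, so the 39 include genes that were present in few groups. At E11.5, 14 of the 39 were called between the sexes: 7 were higher in XX (17.9%, against 21.4% of all genes tested) and 7 were lower (17.9%, against 20.6%). On log2(TPM + 1) values tested with limma, the E11.5 calls were 11, of which 2 were higher in XX. At E12.5, 32 genes were called, 18 higher in XX (46.2%, against 30.5%) and 14 lower (35.9%, against 31.5%). At E13.5 there were 30, with 17 higher (43.6%, against 32.8%) and 13 lower (33.3%, against 33.3%), and 29 without XX E13.5 replicate 1. At E15.5 there were 25, with 12 higher (30.8%, against 34.9%) and 13 lower (33.3%, against 34.4%). The share of collagen genes higher in XX was above that of all genes at E12.5 and E13.5, and the shares at E11.5 and E15.5 were near the background. The E11.5 count was 18 without XX E11.5 replicate 3 and 11 without XY E11.5 replicate 1. The median log2 difference of the collagen genes was 0.60 at E12.5, where the median of all genes was -0.01.

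In time, the XY cells changed most between E11.5 and E12.5: 14 genes rose (35.9%, against 27.1% of all genes) and 16 fell (41%, against 24.8%). From E12.5 to E13.5, 0 collagen genes rose in XY (against 8.02%) and 10 fell (25.6%, against 8.62%), a count that was 4 without XY E13.5 replicate 2 and became 6 when XY E12.5 replicate 1 was left out. The 0 came from edgeR and held at an unadjusted p under 0.05, with DESeq2 and with limma, while edgeR on the compared libraries alone found 1 that rose. From E13.5 to E15.5, 11 rose (28.2%, against 11.51%) and 10 fell (25.6%, against 9.79%), and limma on log2(TPM + 1) called 17, of which 6 rose. In XX, 5 genes rose from E11.5 to E12.5 (12.8%, against 16.7%) and 12 fell (30.8%, against 17.3%). The count of 17 was 9 without XX E11.5 replicate 3 and 24 without XX E11.5 replicate 2. From E12.5 to E13.5, 1 gene, Col23a1, rose in XX (2.56%, against 14.2%) and 15 fell (38.5%, against 17.4%). These 16 calls were 9 without XX E12.5 replicate 2 or XX E13.5 replicate 2. Leaving out either of the other XX E13.5 libraries, replicate 1 or 3, gave 10. From E13.5 to E15.5, 4 rose and 4 fell in XX (10.3% each, against 12.8% and 12.8%), 8 calls that became 3 without XX E15.5 replicate 3, 4 without XX E13.5 replicate 2, and 5 when either of the other XX E13.5 libraries (replicates 1 and 3) or XX E15.5 replicate 1 was left out.

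Over all stages, 32 of the 39 genes changed in XX (82.1%, against 74% of all genes) and 34 in XY (87.2%, against 70.3%). The sex difference itself changed over the stages for 31 genes (79.5%, against 70.1%). Called higher in XX at all 4 stages were 2 genes, Col12a1 and Col19a1, a pattern held by 8.49% of all genes. Called higher in XY at all 4 stages were 5 genes, Col9a2, Col9a3, Col14a1, Col18a1 and Col27a1, a pattern held by 9.39% of all genes. Opposite calls at E11.5 and E15.5 were found for Col4a1, Col4a2 and Col15a1, and for 7.15% of all genes.

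**Figure D2:**
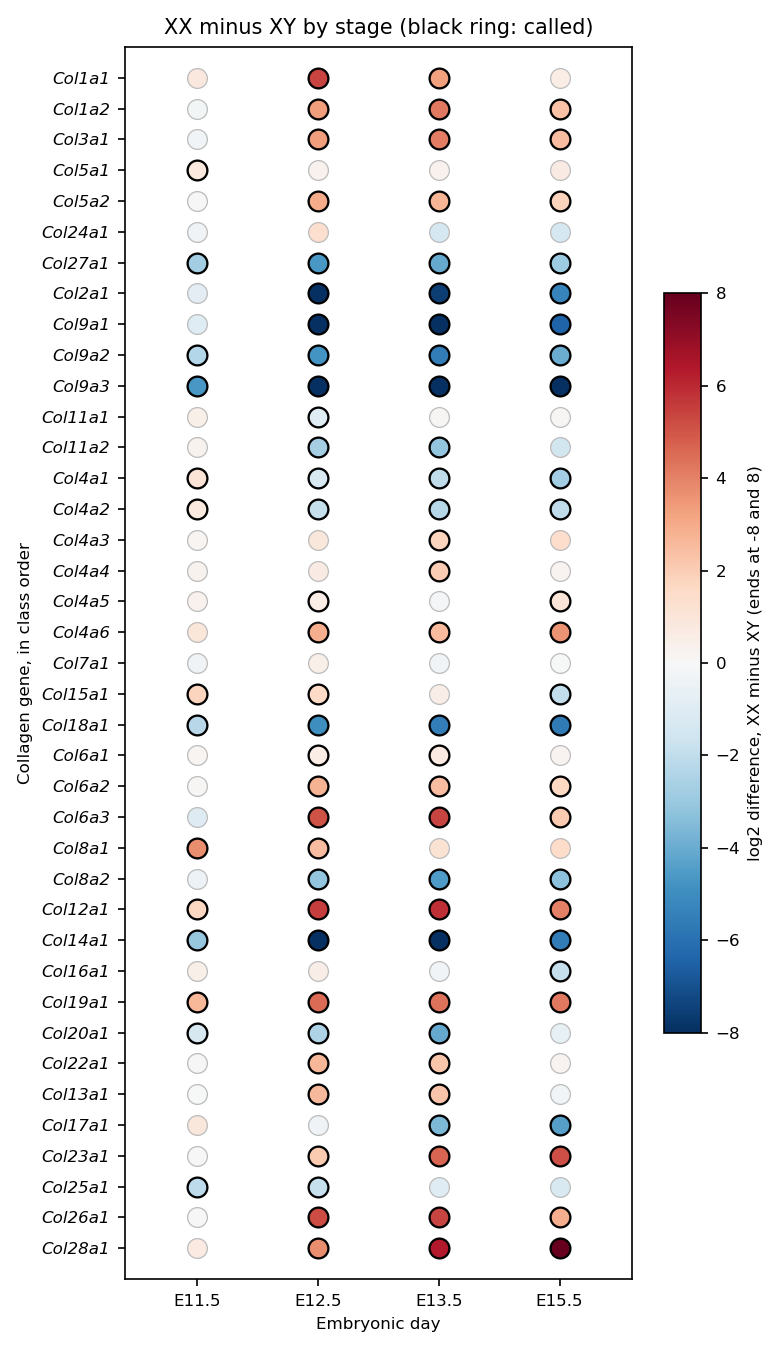
Log2 difference XX minus XY (colour scale ending at -8 and 8) of the 39 genes tested, by class, against embryonic day; a black ring marks a called difference. Rings mark 14 genes at E11.5 and 32 a day later, and the 6 cartilage-type genes all lie on the XY side at E12.5.

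The cartilage-type chains were higher in XY wherever they were called. At E11.5, 2 of the 6 tested genes were called higher in XY, at E12.5 all 6, at E13.5 5 and at E15.5 4. Among all genes, 20.6%, 31.5%, 33.3% and 34.4% were higher in XY over the stages in turn. The median log2 difference of the cartilage-type genes was -0.91 at E11.5. At the later stages it was -7.04, -6.58 and -4.66, where the medians of all genes lay between -0.01 and 0.05. In XY, 5 of the 6 rose from E11.5 to E12.5 (against 27.1% of all genes). In XY, 4 fell from E12.5 to E13.5 (8.62%) and 5 fell from E13.5 to E15.5 (9.79%). In XX, 4 fell (17.3%) and 1 rose (16.7%) from E11.5 to E12.5. Without XX E11.5 replicate 3, edgeR no longer called the falls of Col11a1 (adjusted p = 0.0591) and Col11a2 (0.0705) or the rise of Col9a2 (0.146). The falls of Col2a1 and Col9a1 were still called.

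Col9a3 (chr2:180597790-180622189, plus strand), a chain of type IX collagen, had the highest level of the class. In XY it was at 63.1, 78.6 and 36.6 TPM at E11.5 and 1108, 1172 and 1068 TPM at E12.5. It was at 1125, 796 and 1103 TPM at E13.5 and 507, 444 and 487 TPM at E15.5. All 12 XX libraries lay within 1.37 to 3.92 TPM, so every XY library was above every XX library. The log2 difference was -4.64 (SE 0.29, adjusted p = 1.63e-10) at E11.5 and -9.34 (SE 0.34, adjusted p = 7.51e-15) at E12.5. Without XX E11.5 replicate 3, the E11.5 difference was -4.55 (adjusted p = 3.55e-09). Col9a3 overlaps Tcfl5 on the opposite strand, and whether strand was used in counting is not given in the sources used here.

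Col9a2 (chr4:121039385-121055322, plus strand), another type IX chain, was lower than Col9a3 in XY and peaked with it. The XY libraries held 46.03, 56.7 and 26.4 TPM at E11.5, then 313, 323 and 292, then 212, 165 and 222 and last 57.1, 53.4 and 53.1 TPM. Its XX levels were 7.32, 8.22 and 5.71 TPM at E11.5, 12.2, 16.3 and 10.7 TPM a day later, 5.77, 5.27 and 3.3 TPM at E13.5 and 2.94, 4.26 and 3.14 TPM at the last stage. The sexes did not overlap at any stage, and the difference was -2.35 (SE 0.24, adjusted p = 1.51e-07) at E11.5 (-2.22, adjusted p = 1.88e-06 without XX E11.5 replicate 3) and -5.58 (SE 0.28, adjusted p = 4.79e-13) at E13.5. Col9a2 was the cartilage-type gene that rose in the first XX step (0.66, SE 0.24, adjusted p = 0.0377), which was not called without XX E11.5 replicate 3, at 0.52 (adjusted p = 0.146).

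Col9a1 (chr1:24177610-24252684, plus strand), the remaining type IX chain, was the one whose E11.5 levels overlapped between the sexes. At E11.5 it was at 8.06, 12.2 and 25.3 TPM in XY and 4.59, 0.26 and 18.5 TPM in XX, with the highest XX value in replicate 3 (adjusted p = 0.226). At E12.5 it was at 103, 111 and 108 TPM in XY and 0.04, 0 and 0.02 TPM in XX. Summed over libraries these were 15581 counts in XY and 3 in XX, a ratio per total count of 4506 with an exact 95% interval of 1542 to 21850 that covers counting error only. In XY the gene was at 55.8, 53.1 and 56.9 TPM at E13.5 and 4.77, 4.64 and 3.77 TPM at E15.5, a change of -3.63 (SE 0.68, adjusted p = 0.000691) that left all XY libraries above the XX range of 0 to 0.16 TPM. The type IX chains therefore changed in unequal measure in XY. The TPM ratio of Col9a3 to Col9a2 was 1.38 ± 0.0095 (SD, n = 3) at E11.5 and 3.604 ± 0.061, 5.04 ± 0.25 and 8.79 ± 0.44 at the later stages. That of Col9a3 to Col9a1 was 10.4 ± 0.41 at E12.5 and 110.4 ± 17.1 at E15.5.

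Col2a1 (chr15:97975602-98004695, minus strand), the single chain of type II collagen, was transient in XY. XY started at 7.18, 11.2 and 9.64 TPM and went on to 146, 164 and 136, to 42.5, 34.3 and 43.96 and to 2.47, 2.37 and 2.01 TPM. In XX it was at 9.04, 0.27 and 6.08 TPM at E11.5 and at most 0.39 TPM in later libraries. The sexes overlapped at E11.5 (adjusted p = 0.187) and not later, with a difference of -9.29 (SE 0.73, adjusted p = 1.44e-09) at E12.5. In XY Col2a1 rose by 4.27 (SE 0.53, adjusted p = 1.62e-06) from E11.5 to E12.5 and changed by -4.15 (SE 0.55, adjusted p = 2.37e-05) from E13.5 to E15.5. At E15.5 there were 441 counts in XY and 9 in XX, a ratio of 38.7 (exact 95% interval 20.2 to 85.2). In XX the change from E11.5 to E12.5 was -4.19 (SE 0.69, adjusted p = 0.00018), and -4.02 (adjusted p = 0.000959) without replicate 3. Replicate 2 of XX E11.5, at 0.27 TPM, already lay within the XX E12.5 range of 0.19 to 0.39 TPM. Without replicate 3 the fall therefore rests on replicate 1.

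The type XI chains and Col10a1 were low. Col11a1 was at 4.79, 4.99 and 5.38 TPM in XY and 3.6, 3.08 and 2.54 TPM in XX at E12.5, the one stage at which it was called (-0.94, SE 0.29, adjusted p = 0.00723), and it lay within 1.02 to 5.38 TPM in all XY libraries. That call was not kept on log2(TPM + 1) values, at an adjusted p of 0.0512 by limma. Col11a2 was at 2.87, 1.99 and 1.82 TPM in XY and 0.17, 0.53 and 0.44 TPM in XX at E12.5 (-2.70, SE 0.57, adjusted p = 0.000315) and was also called at E13.5 (-3.13, SE 0.74, adjusted p = 0.000872). Col10a1, a chain of growth-plate cartilage that did not pass the count filter, was at most 0.26 TPM in any library.

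**Figure D3:**
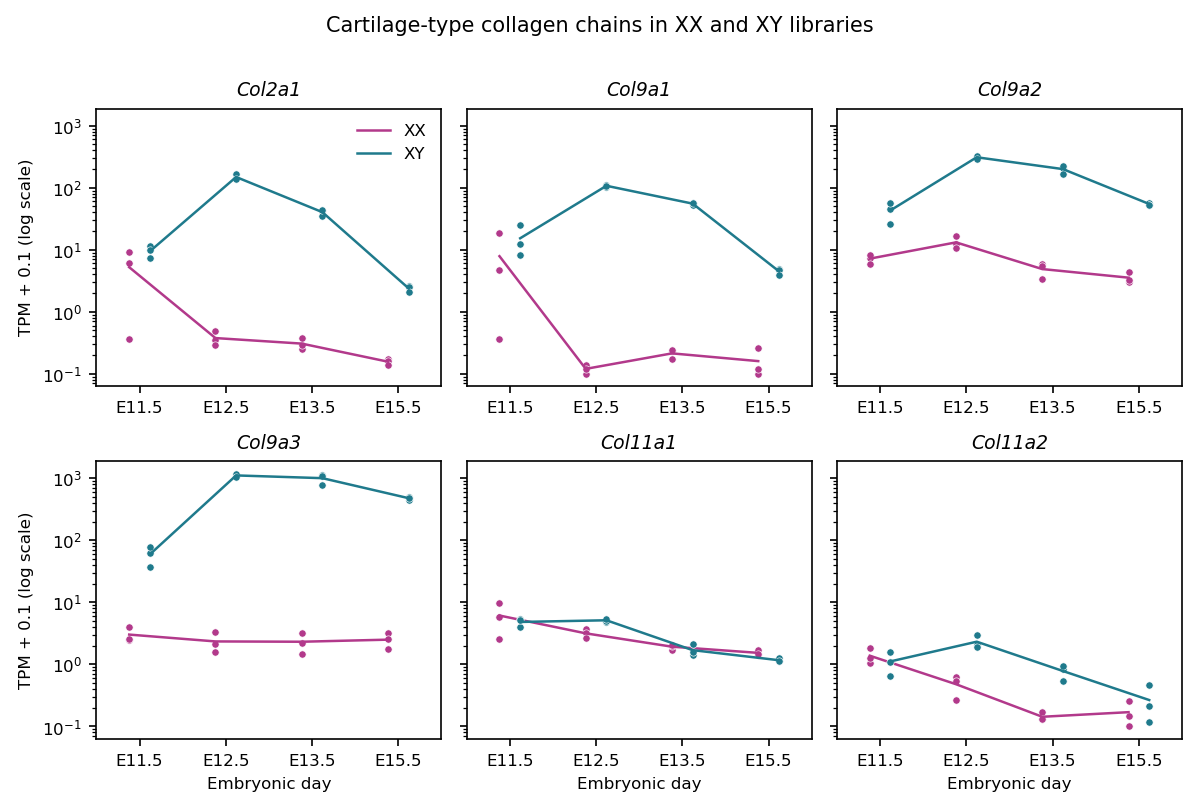
TPM plus 0.1 (log scale) of 6 cartilage-type genes against embryonic day; each point is 1 library and lines join group means of XX and XY. Col2a1 and Col9a1 of XY peak at E12.5 and are under 5 TPM at E15.5, while Col9a3 of XY remains at 444 to 507 TPM.

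Genes that accompany these chains in cartilage did not all take the same side. Of 12 cartilage matrix partners, 8 were tested, and at E12.5 4 were higher in XY and 1 in XX. At E13.5, 3 were higher in XY and 4 in XX. The shares of all genes were 31.5% in XY and 30.5% in XX at E12.5, and 33.3% and 32.8% at E13.5. Cnmd, chondromodulin, had a mean of 35.9 TPM in XY and 1.44 TPM in XX at E12.5 (-4.87, SE 0.26, adjusted p = 1.07e-12). Sox6, a transcription factor that acts with SOX9 in cartilage, was on the XY side at each stage, with differences from -2.75 to -2.36. Sox5, its close relative, was higher in XY at E11.5 (-1.30, SE 0.13, adjusted p = 5.15e-08) and E12.5 and higher in XX at E13.5 and E15.5 (2.93, SE 0.14, adjusted p = 1.13e-13). Matn2, a matrilin, was higher in XX from E12.5 on, with 2.21 (SE 0.15, adjusted p = 4.71e-11) at E15.5.

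The 6 chondrocyte markers summed to 12.2 to 16.7 TPM in XY at E11.5, 33.3 to 52.5 at E12.5, 93.5 to 109 at E13.5 and 73.5 to 79.95 at E15.5, against 5.63 to 10.8 TPM over all XX libraries. Cnmd made up most of the XY sum from E12.5. The defining marker Acan (aggrecan) had group means of 1.35 to 2.9 TPM, and the group means of Matn1 and Comp were at most 0.043 and 0.14 TPM. Col9a3 in the same XY libraries at E12.5 was at 1068 to 1172 TPM.

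Part of the fibrillar chains were higher in XX after E11.5, and Col27a1 was higher in XY. At E12.5 and again at E13.5, 4 of the 7 tested genes were called higher in XX and 1, Col27a1, higher in XY. At E15.5 the XX side held 3 and the XY side 1. Among all genes, 30.5% to 34.9% were higher in XX and 31.5% to 34.4% in XY at these stages. The median log2 difference of the fibrillar genes was -0.21 at E11.5 and 2.99, 2.71 and 0.66 at the later stages. In XY, 4 fell (against 24.8% of all genes) and 1 rose (27.1%) from E11.5 to E12.5. From E12.5 to E13.5, 2 fell (8.62%), and from E13.5 to E15.5, 3 rose (11.51%) and 1 fell (9.79%). In XX, 3 fell from E11.5 to E12.5 (17.3%), and 1 of these, Col1a1, was still called without XX E11.5 replicate 3. The fibrillar sum at E11.5 was 276, 134 and 985 TPM in XX and 301, 433 and 583 TPM in XY, so the high XX value came from replicate 3 and the sexes overlapped. The log2 ratio of the mean sums, XX over XY, was 0.08 with that library and -1.10 without it, and 1.02, 0.99 and 1.69 at the later stages. Without Col3a1 the later ratios were 0.059, 0.039 and 0.81. These sums leave out Col2a1, which also forms fibrils. Its XY mean at E12.5 was 149 TPM, against 75.1 TPM for the whole fibrillar list.

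Col1a1 (chr11:94936224-94953042, plus strand), the main chain of type I collagen, fell below 1 TPM in every XY library at E12.5 and was higher again at E15.5. In XY libraries, E11.5 gave 63.6, 122 and 163 TPM, E12.5 gave 0.23, 0.62 and 0.46, E13.5 gave 1.59, 1.04 and 1.56 and E15.5 gave 16.3, 21 and 17.1 TPM. The XX libraries held 105, 24.5 and 478 TPM at E11.5, then 24.5, 29.8 and 6.34, then 8.58, 8.37 and 14.8 and last 17.7, 30.6 and 31.9 TPM. XX libraries were all above XY libraries at E12.5 and E13.5, and the groups overlapped at E11.5 and E15.5. In XY the change was -7.93 (SE 0.96, adjusted p = 1.17e-06) from E11.5 to E12.5 and 4.02 (SE 0.80, adjusted p = 0.00118) from E13.5 to E15.5. The sex difference was 5.42 (SE 0.90, adjusted p = 3.39e-05) at E12.5 and was not called at E15.5 (adjusted p = 0.423). In XX the change from E11.5 to E12.5 was -3.34 (SE 0.73, adjusted p = 0.00175), and -1.67 (adjusted p = 0.0307) without replicate 3. Replicate 2 of XX E11.5, at 24.5 TPM, lay within the XX E12.5 range of 6.34 to 29.8 TPM, so that fall rests on replicate 1.

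Col1a2 (chr6:4504814-4541544, plus strand), the partner chain in type I collagen, followed a like course. Its XY levels were 55.5, 88.5 and 120.2 TPM at E11.5, 1.39, 1.79 and 1.66 TPM a day later, 1, 0.97 and 0.89 TPM at E13.5 and 5.44, 6.98 and 5.72 TPM at the last stage. XX started at 31.7, 20.1 and 161 TPM and went on to 22.4, 21.8 and 10.7, to 15.6, 16.8 and 21.8 and to 24.9, 36.7 and 34.6 TPM. From E12.5 on every XX library was above every XY library, with a difference of 4.23 (SE 0.59, adjusted p = 3.77e-06) at E13.5. The return in XY was not in step with Col1a1: the TPM ratio of Col1a1 to Col1a2 was 1.296 ± 0.13 (SD, n = 3) at E11.5, 0.26 ± 0.091 at E12.5 and 2.999 ± 0.012 at E15.5. The XX fall of Col1a2 from E11.5 to E12.5 (-2.04, SE 0.50, adjusted p = 0.0043) was not called without replicate 3, at -0.59 (adjusted p = 0.124).

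Col3a1 (chr1:45311538-45349706, plus strand), the chain of type III collagen, had the highest mean fibrillar level in XX at each stage after E11.5. In XX libraries, E11.5 gave 105, 62.7 and 280.3 TPM, E12.5 gave 93.95, 90.8 and 58.7, E13.5 gave 57.8, 47.5 and 54.9 and E15.5 gave 91.99, 111 and 108 TPM. The XY libraries held 136, 166 and 238 TPM at E11.5, then 5.62, 6.97 and 7.88, then 3.34, 3.22 and 3.57 and last 8.12, 14.9 and 11.9 TPM. The sexes overlapped at E11.5 and at no later stage, and the difference was 3.37 (SE 0.38, adjusted p = 1.86e-07) at E12.5 and 4.10 (SE 0.40, adjusted p = 2.15e-08) at E13.5. In XY it changed by -4.41 (SE 0.40, adjusted p = 1.37e-08) from E11.5 to E12.5 and by 2.25 (SE 0.38, adjusted p = 0.00025) from E13.5 to E15.5. Col5a2, a type V chain whose gene ends 24614 bases from the end of Col3a1, was at 10.8 to 21.3 TPM in XY at E11.5 and 1.07 to 2.5 TPM later. In XX, Col5a2 stayed within 7.07 to 24.8 TPM, and its difference was 2.99 (SE 0.33, adjusted p = 1.52e-07) at E12.5.

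Col5a1 (chr2:27886425-28039514, plus strand), the main type V chain, changed over the stages in both sexes, with higher means at E11.5 than at E15.5. Its XX levels were 19.4, 17.3 and 36.05 TPM at E11.5, 17.1, 19.1 and 13.7 TPM a day later, 12.2, 10.7 and 11.4 TPM at E13.5 and 8.24, 11.6 and 9.39 TPM at the last stage. XY started at 10.4, 17.9 and 17.8 TPM and went on to 10.4, 7.57 and 6.28, to 4.91, 4.29 and 7.63 and to 3.58, 3.53 and 3.4 TPM. XX libraries were all above XY libraries from E12.5 on, yet the gene was called at E11.5 alone (0.86, SE 0.29, adjusted p = 0.021). That call was lost without XX E11.5 replicate 3, at 0.46 (adjusted p = 0.187). In the counts, which are not scaled for length, the difference at E12.5 was 0.37 (adjusted p = 0.279).

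Col27a1 (chr4:63214004-63334991, plus strand), a fibrillar chain known from cartilage, was the gene of the fibrillar list called higher in XY. In XY libraries, E11.5 gave 23.7, 25.2 and 22.02 TPM, E12.5 gave 55.8, 58.5 and 55.6, E13.5 gave 40.01, 32.5 and 45.2 and E15.5 gave 15.51, 14.9 and 14.3 TPM. The XX libraries lay within 1.54 to 5.05 TPM, so all XY libraries were above all XX libraries. The difference was -2.78 (SE 0.22, adjusted p = 3.6e-09) at E11.5 (-2.63, adjusted p = 4.67e-08 without XX E11.5 replicate 3), -4.68 (SE 0.24, adjusted p = 4.76e-13) at E12.5 and -2.90 (SE 0.23, adjusted p = 5.66e-10) at E15.5. Its first XY step was a rise (1.46, SE 0.20, adjusted p = 3.27e-06), the step in which 5 cartilage-type genes rose. Col24a1 was at most 0.58 TPM and was not called between the sexes, and Col5a3, which did not pass the count filter, was at most 1.66 TPM, in XX E11.5 replicate 3.

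**Figure D4:**
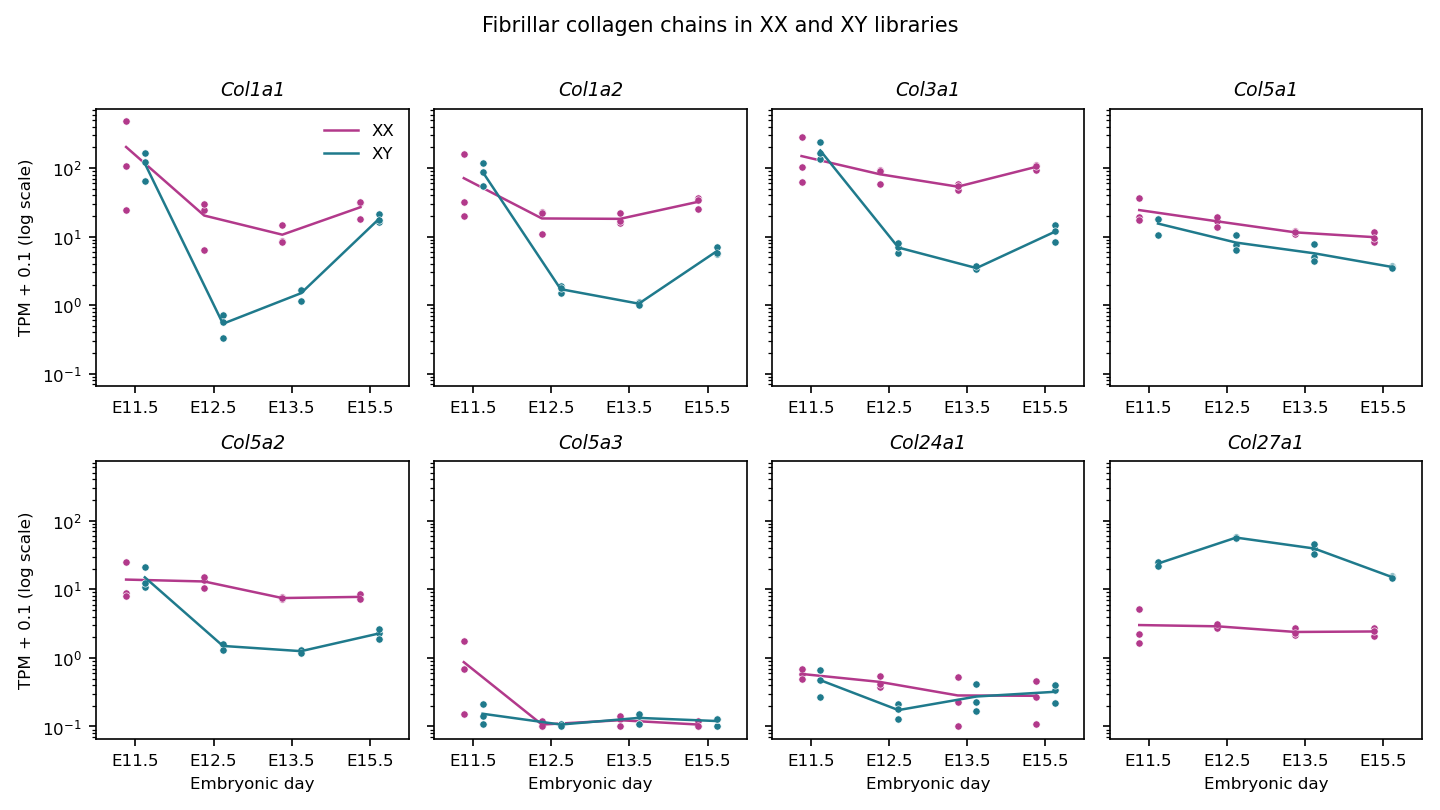
TPM plus 0.1 (log scale) of the 8 fibrillar genes against embryonic day; each point is 1 library and lines join group means of XX and XY. Col1a1, Col1a2 and Col3a1 of XY drop from E11.5 to E12.5 and are higher at E15.5 than at E13.5, while Col27a1 of XY lies above XX at each stage.

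The summed stromal and perivascular markers of XY were highest at E11.5, as type I and III genes were, though their members differed. The 8 stromal markers summed to 277 to 438 TPM in XY at E11.5, 18.8 to 21.6 at E12.5, 13.8 to 16.8 at E13.5 and 25 to 32.5 at E15.5. In XX they summed to 193, 107 and 329.6 TPM at E11.5 and 70.2 to 154 TPM later. All 8 had lower XY means at E12.5 than at E11.5. From E13.5 to E15.5 the XY mean of the stromal proteoglycan Dcn went from 0.93 to 9.84 TPM, that of Postn from 7.23 to 3.08 TPM and that of Nr2f1 from 0.55 to 0.37 TPM. The 6 perivascular markers summed to 66.2 to 146 TPM in XY at E11.5, then 13.53 to 15.9, 7.16 to 8.53 and 19.4 to 21.1 TPM. Cspg4 went against the other 5 in the first step, with XY means of 2.83, 13.4, 6.68 and 12.02 TPM over the stages, and made up most of the later sums. None of the 8 stromal markers had a group mean of 0. The part of these markers in the fibrillar result was not tested.

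The basement-membrane chains had calls on both sides. Of all genes, 21.4% were higher in XX and 20.6% in XY to begin with, and 30.5% to 34.9% on either side later. Of the 9 basement-membrane genes, 3 were called higher in XX and 1 in XY at E11.5. At both middle stages the count was 3 on either side, near those shares, and it was 2 against 4 at the last stage. Their sum was 1902, 1856 and 1531 TPM in XY and 135, 188 and 90.6 TPM in XX at E12.5, and the XY libraries were above the XX libraries at each stage. Col18a1 made up most of the XY sum. The log2 ratio of the mean sums, XX over XY, was -1.18 at E11.5 and -3.68 a day later, and without Col18a1 it was 0.62 and -0.78.

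Col18a1 (chr10:77052178-77166548, minus strand) encodes type XVIII collagen, a proteoglycan of basement membranes from which endostatin is released, and it had the highest mean of all collagen genes in XY at E11.5 and E12.5. The XY libraries held 273, 330.1 and 135 TPM at E11.5, then 1759, 1719.5 and 1413, then 921, 744 and 1027 and last 498, 479 and 461 TPM. Its XX levels were 54.8, 44.4 and 50.03 TPM at E11.5, 58.2, 85.04 and 37.96 TPM a day later, 21.6, 18.8 and 20.1 TPM at E13.5 and 9.25, 13.8 and 7.81 TPM at the last stage. All XY libraries exceeded all XX libraries of their stage. The difference was -2.24 (SE 0.27, adjusted p = 1.68e-06) at E11.5 (-2.24, adjusted p = 1.48e-05 without XX E11.5 replicate 3), -4.95 (SE 0.31, adjusted p = 2.33e-11) at E12.5 and -5.63 (SE 0.32, adjusted p = 4.52e-12) at E15.5. In XX it fell from E12.5 to E13.5 (-1.47, SE 0.27, adjusted p = 0.000371) and again to E15.5 (-1.03, SE 0.27, adjusted p = 0.00879). Col18a1 overlaps Slc19a1 on the opposite strand, so reads of the overlap cannot be assigned with certainty.

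Col4a1 (chr8:11198423-11312826, minus strand) and Col4a2 (chr8:11312805-11449287, plus strand) encode the chains of the common type IV network, run in opposite directions and start 21 bases apart, within the overlap printed above. Col4a1 was at 34.7, 25.8 and 34.5 TPM in XX and 18.1, 20.1 and 12.97 TPM in XY at E11.5. A day later it was at 27.7, 43.3 and 22.7 TPM in XX and 57.5, 59.3 and 50.6 TPM in XY. It was at 22.1, 20.4 and 24.4 against 60.8, 51.1 and 63.1 TPM at E13.5 and 20.6, 18.3 and 20.1 against 77.3, 89.4 and 80.98 TPM at E15.5. XX was above XY without overlap at E11.5, and XY above XX without overlap from E12.5 on. The difference was 1.11 (SE 0.27, adjusted p = 0.00246) at E11.5 (0.999, adjusted p = 0.00952 without XX E11.5 replicate 3), -1.27 (SE 0.27, adjusted p = 0.000388) at E12.5 and -2.80 (SE 0.28, adjusted p = 2.93e-08) at E15.5.

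Col4a2 was likewise higher in XY from E12.5 on. It was at 27.6, 15.9 and 34.3 TPM in XX and 12.9, 21.9 and 12.2 TPM in XY at E11.5, where the groups overlapped. At E12.5 it was at 19.9, 26.96 and 11.46 against 69.9, 64.1 and 53.8 TPM, at E13.5 at 10.6, 10.02 and 10.4 against 50.2, 40.96 and 66.9 TPM and at E15.5 at 12.03, 13.8 and 10.04 against 53.3, 48.6 and 46.5 TPM. XY libraries were above XX libraries from E12.5 on. The E11.5 call (0.79, SE 0.27, adjusted p = 0.0213) was lost without XX E11.5 replicate 3, at 0.53 (adjusted p = 0.127), and without XY E11.5 replicate 1 (adjusted p = 0.0845) or 3 (adjusted p = 0.0832), and the difference at E12.5 was -1.89 (SE 0.27, adjusted p = 5.24e-06). In XY, Col4a1 rose by 2.10 (SE 0.27, adjusted p = 2.28e-06) and Col4a2 by 2.20 (SE 0.27, adjusted p = 1.23e-06) from E11.5 to E12.5. The TPM ratio of Col4a1 to Col4a2 lay between 0.8962 ± 0.064 (SD, n = 3; XY E12.5) and 2.16 ± 0.17 (XX E13.5) over the 8 groups.

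Col4a5 and Col4a6, another head-to-head type IV pair, lie on the X chromosome with starts 1309 bases apart, and where called they were higher in XX. Col4a5 (chrX:141475385-141689234, plus strand) was at 21.2, 19.5 and 20.3 TPM in XX and 15.8, 19.2 and 15.9 TPM in XY at E11.5, which did not overlap and were not called (adjusted p = 0.0697). It was at 26.2, 27.9 and 16.6 against 14.5, 12.7 and 12.9 TPM at E12.5 (0.58, SE 0.16, adjusted p = 0.003) and 11.7, 9.52 and 9.95 against 9.78, 8.43 and 9.47 TPM at E13.5 (adjusted p = 0.36). At E15.5 it was at 16.2, 17.3 and 15.3 against 4.78, 6.46 and 5.5 TPM (1.01, SE 0.16, adjusted p = 1.07e-05). Only the E13.5 groups overlapped. Col4a6 (chrX:141165403-141474076, minus strand) was at 1.97, 0.95 and 2.8 TPM in XX and 0.84, 0.98 and 1.29 TPM in XY at E11.5, and later at 0.38 to 1.75 TPM in XX and 0.04 to 0.19 TPM in XY. Its difference was 2.89 (SE 0.48, adjusted p = 2.32e-05) at E12.5 and 3.62 (SE 0.47, adjusted p = 6.87e-07) at E15.5. In XY, Col4a6 fell from E11.5 to E12.5 (-3.33, SE 0.47, adjusted p = 5.28e-06) and Col4a5 was not called (adjusted p = 0.596), and the TPM ratio of Col4a5 to Col4a6 was 16.9 ± 4.002 (SD, n = 3) and then 172 ± 74.98.

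The remaining basement-membrane genes were low. Col4a3 and Col4a4, the pair of the mature kidney network with starts 72 bases apart on chromosome 1, were at most 0.64 and 0.42 TPM. Both were called higher in XX at E13.5 alone, Col4a3 by 1.77 (SE 0.71, adjusted p = 0.0327) and Col4a4 by 2.06 (SE 0.57, adjusted p = 0.00342). The Col4a3 call was lost without XX E13.5 replicate 1 or 2 or any 1 of the XY E13.5 libraries, at adjusted p of 0.0507 to 0.0744. Col15a1, a chain of type XV collagen, was at most 1.53 TPM and was called higher in XX at E11.5 (1.80, SE 0.54, adjusted p = 0.0101) and E12.5 and higher in XY at E15.5 (-1.94, SE 0.52, adjusted p = 0.00231). Without XX E11.5 replicate 3 its E11.5 difference was 1.81 (adjusted p = 0.0179), and without XY E11.5 replicate 1 the call was lost, at 1.49 (adjusted p = 0.0538). Col7a1, the chain of anchoring fibrils, was at most 2.57 TPM and was not called between the sexes at any stage.

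**Figure D5:**
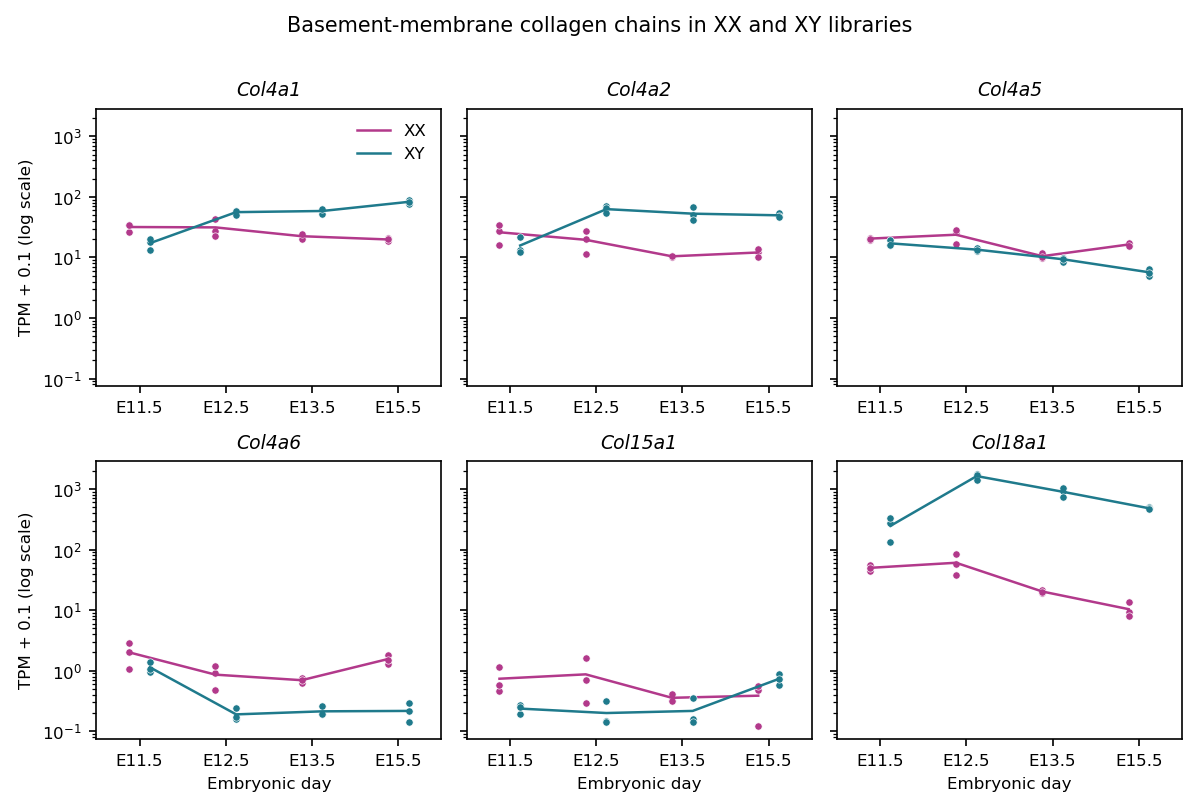
TPM plus 0.1 (log scale) of 6 basement-membrane genes against embryonic day; each point is 1 library and lines join group means of XX and XY. The lines of Col4a1 and Col4a2 cross between E11.5 and E12.5, Col18a1 of XY reaches 1413 to 1759 TPM at E12.5, and Col4a6 of XY is at most 0.19 TPM from E12.5 on.

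Type VI collagen forms beaded filaments from the chains of Col6a1, Col6a2 and Col6a3. All 3 genes were called higher in XX at E12.5 (against 30.5% of all genes) and E13.5 (32.8%). Col6a1 (chr10:76708792-76726168, minus strand) was at 21.02, 30.2 and 29.8 TPM in XX to begin with, 60.6, 60.03 and 44.2 TPM a day later, 47.3, 42.4 and 41.8 TPM at E13.5 and 27.01, 39.7 and 27.1 TPM at the last stage. XY started at 20.8, 29.3 and 28.7 TPM and went on to 35.03, 31.4 and 28.03, to 25.2, 26.3 and 30.5 and to 28.9, 28.4 and 27.8 TPM. XX libraries were above XY libraries at E12.5 (0.60, SE 0.16, adjusted p = 0.00263) and E13.5, and the sexes overlapped at E11.5 and E15.5. Col6a2, its neighbour 85161 bases away, was at 14.7 to 24.6 TPM in XX and 2.4 to 2.72 TPM in XY at E12.5 (2.77, SE 0.25, adjusted p = 4.74e-09). From E11.5 to E12.5 in XY, the Col6a1 difference was 0.47 (SE 0.16, adjusted p = 0.0184) and that of Col6a2 was -1.78 (SE 0.24, adjusted p = 3.23e-06). The Col6a1 call was lost with limma (adjusted p 0.205 to 0.281), at 0.27 without XY E11.5 replicate 1 (adjusted p = 0.209), and without XY E11.5 replicate 3 or XY E12.5 replicate 1 or 2. The TPM ratio of Col6a1 to Col6a2 was 2.69 ± 0.37 (SD, n = 3) at E11.5 and 12.55 ± 0.76 at E12.5 in XY, and 2.86 ± 0.65 and 2.84 ± 0.34 in XX. Col6a3 was at 3.82 to 5.28 TPM in XY at E11.5 and at most 0.23 TPM at E12.5 and E13.5, a change of -6.22 (SE 0.66, adjusted p = 9.73e-08) in the first step.

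FACIT collagens attach to the surface of fibrils. Type IX also belongs to them, and its genes, all called higher in XY at E12.5, were counted above as cartilage-type. Among the 6 FACIT genes left, the most abundant pair took opposite sides. Of the 6 genes, 2 were called higher in XX and 2 in XY at E11.5, 3 against 2 at both middle stages, and again 2 on either side at E15.5. The shares of all genes were 21.4% and 20.6% at E11.5 and 30.5% to 34.9% on either side later. Col14a1 (chr15:55307750-55520803, plus strand) was at 7.36, 7.04 and 9.7 TPM in XY to begin with, 136, 119.9 and 116 TPM a day later, 132, 137 and 148 TPM at E13.5 and 66.9, 63.1 and 58.5 TPM at the last stage. In XX it lay within 0.19 to 1.74 TPM, below every XY library. The difference was -3.11 (SE 0.28, adjusted p = 2.73e-08) at E11.5 and -8.45 (SE 0.33, adjusted p = 1.59e-14) at E12.5, and -3.59 (adjusted p = 5.43e-09) at E11.5 without XX E11.5 replicate 3. Col12a1 (chr9:79598991-79718831, minus strand) was at 33.9, 42.5 and 40.3 TPM in XX to begin with, 51.8, 50.1 and 76.2 TPM a day later, 29.2, 29.7 and 32.1 TPM at E13.5 and 23.8, 23.9 and 19.6 TPM at the last stage. In XY libraries, E11.5 gave 9.41, 6.79 and 14.1 TPM, E12.5 gave 0.59, 1.58 and 2.53, E13.5 gave 0.38, 0.5 and 0.87 and E15.5 gave 1.58, 1.18 and 1.22 TPM. Every XX library was above the XY libraries of its stage. The difference was 1.72 (SE 0.21, adjusted p = 1.72e-06) at E11.5 (1.60, adjusted p = 1.38e-05 without XX E11.5 replicate 3), 5.53 (SE 0.26, adjusted p = 2.08e-13) at E12.5 and 4.04 (SE 0.26, adjusted p = 1.54e-11) at E15.5.

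Among the other FACIT genes, Col16a1 lay within 3.39 to 10.4 TPM in XX and 2.8 to 12.3 TPM in XY and was called at E15.5 alone, higher in XY (-1.88, SE 0.32, adjusted p = 2.07e-05). Col22a1, a chain found at tissue junctions, was at 2.71 to 5.15 TPM in XX and 0.23 to 0.49 TPM in XY at E12.5 (2.69, SE 0.31, adjusted p = 2.31e-07) and was also higher in XX at E13.5. Col19a1, which lies 9205 bases from Col9a1 tail to tail, was on the opposite side to it: at most 1.92 TPM in XX and 0.14 TPM in XY, and called higher in XX at each stage (2.69 at E11.5, and 2.88 (adjusted p = 0.0119) without XX E11.5 replicate 3). At E13.5 its 50 counts in XX and 3 in XY gave a ratio of XY to XX of 0.0385 (exact 95% interval 0.00767 to 0.119). Col20a1 was at most 2.38 TPM and was called higher in XY at the first 3 stages (-1.32 at E11.5, and -1.52 (adjusted p = 0.0215) without XX E11.5 replicate 3).

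The transmembrane and unclassed chains had more calls on the XX side after E11.5. Of the 6 genes, 4 were on the XX side and 1 on the XY side at both E12.5 and E13.5, and 3 against 1 at the last stage. The shares of all genes at these stages were 30.5% to 34.9% on the XX side and 31.5% to 34.4% on the XY side. Col23a1 lay within 2.77 to 6.08 TPM in XX over all stages. In XY it was at 3.62 to 4.58 TPM at E11.5 and 0.12 to 0.2 TPM at E15.5, and the difference at E15.5 was 5.18 (SE 0.29, adjusted p = 2.1e-12). Col26a1, a collagen first described in testis and ovary, was at 13.48 to 20.7 TPM in XX and 0.43 to 0.83 TPM in XY at E12.5 (5.22, SE 0.37, adjusted p = 9.35e-11), after 8.53 to 15.8 and 8.33 to 20.5 TPM at E11.5, which overlapped. Its first XY step was -4.98 (SE 0.36, adjusted p = 4.25e-10). Col25a1 was at 8.2 to 11.3 TPM in XY at E11.5 and 0.4 to 1.25 TPM later (-3.88, SE 0.54, adjusted p = 4.71e-06 in the first step), and it was called higher in XY at E11.5 (-2.07, and -2.62 (adjusted p = 0.000626) without XX E11.5 replicate 3) and E12.5. Col13a1 was at most 2.64 TPM and was called higher in XX at E12.5 and E13.5. Col17a1, a chain of hemidesmosomes, was at most 1.87 TPM and was called higher in XY at E13.5 (-3.62, SE 0.55, adjusted p = 6.35e-06) and E15.5. Col28a1 did not pass 1 TPM in any library. At E15.5 it had 117 counts in XX and 0 in the XY libraries, which is at least 13.4-fold higher in XX against a floor of 3 counts in the shallowest XY library.

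Type VIII collagen forms short-chain networks. Col8a2 lay within 9.71 to 20.5 TPM in XY and 0.59 to 2.76 TPM in XX from E12.5 on, with -4.54 (SE 0.46, adjusted p = 3.24e-08) at E13.5 and no overlap. Col8a1 was at most 3.28 TPM, in XX E11.5 replicate 3, and was called higher in XX at E11.5 (3.70, SE 0.78, adjusted p = 0.000722, and 2.41 (adjusted p = 0.012) without that library) and at E12.5 (adjusted p = 0.0449). With the replicate number as a block, the E12.5 adjusted p was 0.056.

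The enzymes and chaperones that fold and modify collagen chains in the endoplasmic reticulum were called more often on the XY side. All 20 listed genes were tested: 9 were higher in XY and 3 in XX at the first stage, 13 against 5 at the second, 12 against 5 at the third and 12 against 4 at the last. Of all genes, 20.6% were higher in XY and 21.4% in XX at the first stage, 31.5% and 30.5% at the second, 33.3% and 32.8% at the third, and 34.4% and 34.9% at the last. Their median log2 difference at E12.5 was -0.61, against -0.01 over all genes. In XY, 12 of the 20 rose (against 27.1% of all genes) and 4 fell (24.8%) from E11.5 to E12.5. Serpinh1, the collagen chaperone HSP47, had group means of 1409.9 to 2312 TPM and was slightly higher in XX at E11.5 (0.30, SE 0.11, adjusted p = 0.0269) and E13.5 and higher in XY at E12.5 (-0.38, SE 0.11, adjusted p = 0.00336). P4hb, a subunit of prolyl 4-hydroxylase, was called on the XY side at each stage, by -1.26 (SE 0.08, adjusted p = 1.26e-11) at E12.5. Ppib, a prolyl isomerase, differed by -0.83 (SE 0.13, adjusted p = 1.65e-05) and P3h1, a prolyl 3-hydroxylase, by -1.09 (SE 0.14, adjusted p = 1.1e-06) at E12.5.

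The other lists were small. Of all genes, 30.5% were higher in XX and 31.5% in XY at E12.5, and 34.9% and 34.4% at E15.5. Of 13 genes for propeptide removal and cross-linking, 10 were tested, with 1 higher in XX and 2 in XY at E12.5, and 3 and 4 at E15.5. Pcolce, an enhancer of propeptide removal, had means of 434 TPM in XY and 73.8 TPM in XX at E15.5 (-2.52, SE 0.16, adjusted p = 1.69e-11). Loxl3, a lysyl oxidase, was called on the XY side at each stage, by -2.77 (SE 0.14, adjusted p = 4.03e-13) at E12.5. Bmp1, a procollagen C-proteinase, was higher in XX from E12.5 on, with 0.94 (SE 0.12, adjusted p = 6.94e-07) at E12.5, and Loxl1 was not called between the sexes.

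Of 10 collagen receptors, 8 were tested, with 3 higher in XX and 3 in XY at E12.5, near the shares of all genes, and 1 and 4 at E15.5. Itga11, an integrin chain that binds fibrillar collagen, had means of 24.5 TPM in XY and 3.79 TPM in XX at E12.5 (-2.89, SE 0.19, adjusted p = 2.7e-11). Ddr1, a collagen-activated kinase, had means of 117 TPM in XY and 7.83 TPM in XX at E15.5 (-3.76, SE 0.22, adjusted p = 5.87e-12). Ddr2, the related kinase, had means of 12.2 TPM in XY and 4.76 TPM in XX at E11.5. At E12.5 it was listed at 0 TPM in all XY libraries and had a mean of 0.73 TPM in XX. Itgb1, the common integrin chain, was called on the XY side at each stage, by -1.10 (SE 0.12, adjusted p = 8.32e-08) at E13.5. Of 14 collagen breakdown genes, 12 were tested. At E12.5, 6 were higher in XX (against 30.5% of all genes) and 3 in XY (31.5%). Mmp2, a gelatinase, was higher in XY at each stage (-2.76, SE 0.35, adjusted p = 5.49e-07 at E15.5), and Mmp14, which activates it, was higher in XX at E15.5 and at E12.5 (3.29, SE 0.39, adjusted p = 3.44e-07). Mmp15 was higher in XY from E12.5 on (-2.88, SE 0.28, adjusted p = 2.1e-08 at E13.5), and Timp3, an inhibitor of these proteases, was higher in XY at E11.5, E13.5 (-0.84, SE 0.12, adjusted p = 2.44e-06) and E15.5 and was not called at E12.5.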

How the data were processed

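The 24 libraries were made from poly(A) RNA with a low-input kit that amplifies cDNA and carries no molecular identifiers, per the labels' protocols, so duplicated molecules cannot be removed. The authors deposited a table of estimated counts and one of TPM per gene symbol. The genome build is mm10, per the submitters' processing notes, and the aligner, the counter and the use of strand are not given in the sources used here. Of the expected counts, 17.5% were not whole and were rounded. All 24 libraries were fitted in edgeR 4.0.16 (R 4.3.3; TMM scaling, robust quasi-likelihood, 1 mean per group, 16 residual degrees of freedom). Of 32040 genes, 16190 passed filterByExpr and were adjusted together by Benjamini-Hochberg, with calls at an adjusted p under 0.05. Ratios of counts have exact 95% intervals, and a count of 0 is bounded by a floor of 3 counts, which was 0.0774 to 0.260 CPM. Both cover counting error only. On simulated data, 189 of 200 changed genes were recovered. These were drawn from genes above a count cut, and every gene had the same spread. Recovery of genes with few counts or of uneven groups was not tested.

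Groups came from the sample titles. No pair of libraries was a duplicate. Replicate numbers recur in every group, and nothing in the labels ties same-numbered libraries. Their deviations correlated above 0.1 in every pair for XX against XY at E11.5 (0.17, 0.13 and 0.35) and in none of the other comparisons. Over all 10 comparisons the correlations ran from -0.19 to 0.35. Alternatives were DESeq2 1.42.0, limma 3.58.1 on log2(TPM + 1) or log2(TPM + 0.1), other filters and scaling, a replicate block and leaving out single libraries. Fold changes on a log2(TPM + pseudocount) scale understate those of low genes. The collagen genes, the pathway and marker lists and the rule for named genes (all members; single-library values for those reaching 20 TPM in a group mean and for type IV and cartilage-type genes; at most 4 genes of each other list, by mean TPM) were chosen with earlier results of these data known. Promoter sequences are from RefSeq (GRCm38.p6) and gene coordinates from GENCODE M21 (mm10).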

Additional observations from a re-analysis of the deposited data

Results flagged for a closer look

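The XX minus XY difference changed over the 4 stages, by edgeR's interaction test with Benjamini-Hochberg adjustment, for 31 of the 39 collagen genes tested, and such a difference was found for 70.1% of all genes. Values in parentheses are adjusted p. Fibrillar genes were Col1a1 (0.00208), Col1a2 (0.000201), Col3a1 (2.21e-06), Col5a2 (2.32e-05), Col24a1 (0.0365) and Col27a1 (2.53e-05). Cartilage-type genes were Col2a1 (4.71e-07), Col9a1 (6.95e-06), Col9a2 (5.54e-07), Col9a3 (1.79e-08), Col11a1 (0.0217) and Col11a2 (0.00476). Basement-membrane genes were Col4a1 (2.76e-07), Col4a2 (2.15e-06), Col4a5 (0.000987), Col4a6 (0.00311), Col15a1 (0.000557) and Col18a1 (4.85e-07). Genes of types VI and VIII were Col6a2 (2.9e-06), Col6a3 (1.62e-06) and Col8a2 (2.96e-05). FACIT genes were Col12a1 (3.9e-09), Col14a1 (4.14e-09), Col16a1 (0.000168), Col20a1 (0.00134) and Col22a1 (1.81e-05). The other genes were Col13a1 (0.000304), Col17a1 (7.13e-06), Col23a1 (3e-10), Col26a1 (8.07e-09) and Col28a1 (4.88e-05). Among the genes with the smallest values, Col23a1 and Col26a1 overlapped between the sexes at E11.5 and were higher in XX at each later stage. Col14a1 and Col12a1 kept their sides at every stage while the size of the difference changed. Col4a1 was higher in XX at E11.5 and in XY at E15.5. Col4a2 and Col15a1 had calls on the same sides, but the E11.5 call of Col4a2 was lost without XX E11.5 replicate 3 (0.53, adjusted p = 0.127) and that of Col15a1 without XY E11.5 replicate 1 (1.49, adjusted p = 0.0538). Groups of 3 libraries are too small for a test of single outlying libraries.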

How the results depend on the processing

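Of 203 calls of collagen genes in 10 comparisons, 127 held under every alternative run, 76 were lost under at least 1, and 0 reversed. Between the sexes, 8 of 14, 26 of 32, 25 of 30 and 23 of 25 held over the stages in turn, against 2 of 17 for the first XX step. For XX E11.5 to E12.5 the count of 17 was 11 with limma on log2(TPM + 0.1) and 4 with only the libraries compared. For XX E12.5 to E13.5 the count of 16 was 10 with limma on log2(TPM + 1) over all genes above 0. For XX E13.5 to E15.5 the count of 8 was 5 past a log2 fold change of 1 and with limma at either pseudocount, and 4 over all genes above 0. For XX against XY at E11.5 the count of 14 was 8 with log2(TPM + 0.1) and 8 with only the libraries compared. For XY E12.5 to E13.5 the count of 10 was 6 past the same fold change, 6 and 5 with limma at pseudocounts of 0.1 and 1, 4 over all genes above 0 and 16 with only the libraries compared. The cause was not tested.

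The log2 ratio of summed TPM, XX over XY, was recomputed without the top gene of each class. Basement-membrane genes without Col18a1 gave 0.62 at E11.5, which reversed the sign, then -0.78, -1.44 and -1.45, in place of -1.18, -3.68, -3.97 and -3.33. Cartilage-type genes without Col9a3 gave -5.09, -5.41 and -3.60 from E12.5 on, in place of -6.47, -7.14 and -6.16. Fibrillar genes without Col3a1 gave 0.059, 0.039 and 0.81 over the same 3 stages, in place of 1.02, 0.99 and 1.69. As sums of CPM, basement-membrane genes gave -3.55 and cartilage-type genes -5.91 at E15.5, and fibrillar genes 1.36 at E13.5 and 1.40 at E15.5.

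With single libraries left out, the counts ran from 9 to 24 (XX E11.5 to E12.5), 9 to 16 (XX E12.5 to E13.5), 3 to 6 (XX E13.5 to E15.5) and 4 to 9 (XY E12.5 to E13.5). For XX against XY at E11.5 they ran from 11 to 18. The fibrillar ratio at E11.5 ran from -1.10 (without XX E11.5 replicate 3) to 0.52 and was -0.13 without XY E11.5 replicate 1, so its sign rests on single libraries.

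With the replicate number as a block, counts were 15, 31, 30 and 25 between the sexes, 17, 16 and 8 for the XX steps and 28, 10 and 22 for the XY steps. The block ended 3 calls: Col8a1 between the sexes at E12.5 (adjusted p = 0.056), and Col28a1 (0.0513) and Col4a3 (0.057) for the first XY step (edgeR). It ended no other call. In 1 of the 10 comparisons, XX against XY at E12.5, each library correlated best with its own number.

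With limma on log2(TPM + 1), the median of all genes moved to 0.14 for XX against XY at E12.5, to -0.17 for XX E12.5 to E13.5 and to -0.13 for XY E11.5 to E12.5. The share of all calls that were higher was then 62.5%, 18.9% and 35.3%, against 49.2%, 45.0% and 52.2% in edgeR. For XX against XY at E11.5 it was 39.9% against 50.9%, and for XX E11.5 to E12.5 it was 66.6% against 49.1%. Depth limits genes with few counts, such as Col28a1 and Col19a1 in XY.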
